A study of Homo sapiens with 3 samples.

Results

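ERG and TMPRSS2, the partners of the most common gene fusion of prostate cancer, were followed through single-cell RNA libraries of the prostate cancer lines LNCaP and VCaP. They were taken by gene name and are 2 of the 33423 genes that the libraries list between them. Both lie on the minus strand of chromosome 21 (GRCh38), ERG (ENSG00000157554.20) at 38380027 to 38661780 and TMPRSS2 (ENSG00000184012.14) at 41464300 to 41531116, with their annotated starts 2869 kb apart.

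TMPRSS2 encodes a serine protease of the cell surface, and its promoter is switched on by androgens in luminal prostate epithelium. ERG is a transcription factor of the ETS family, which bind DNA at GGAA cores, and in normal tissue it is typical of endothelial and some blood cells. A rearrangement can join the first exons of TMPRSS2 to the later exons of ERG, which places ERG under androgen control. VCaP carries this fusion and LNCaP does not. Drop-seq counts unique molecular identifiers (UMIs) near the 3′ end of a transcript, so fusion and native transcripts of ERG fall in the same ERG count, while the TMPRSS2 count reads copies that keep the end of TMPRSS2.

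The groups were LNCaP–ENZ168 (10 µM enzalutamide, an antiandrogen drug, for 168 h), VCaP parental (0.1% DMSO vehicle for 48 h) and VCaP–ENZ48 (10 µM enzalutamide for 48 h), with 1 Drop-seq library each. Of 1000 barcodes in each library, 944, 997 and 947 were kept as cells, in that order, with a median of 5389, 17817 and 11224 UMIs per cell and no barcode shared between any pair of libraries. With 1 library per group no test was possible, and every interval given is a 95% interval that covers counting error only. LNCaP–ENZ168 differs from VCaP–ENZ48 in line, exposure time and library at once, and from VCaP parental also in drug, and these cannot be told apart. Barcodes whose last base was read as N made up 205 of the kept cells in LNCaP–ENZ168, 859 in VCaP parental and 820 in VCaP–ENZ48, and the results that differ without them are given both ways. Whether such a barcode stands for a single bead was not settled here, so for most VCaP barcodes a cell, a share of cells and a cell with both transcripts may each cover more than 1 bead.

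RefSeq (GRCh38.p14) lists 4 start sites for ERG, and the 250 bases before 2 of them are shown because native ERG transcripts, unlike those of the fusion, start next to them. Capitals mark GGAA on either strand, the core that ETS factors themselves recognise. TMPRSS2 is not in the promoter table used. The outermost start is the outermost of the 4 RefSeq sites, and its window also lies inside the annotated span of ERG given above.
ERG start site 1, chr21:38660668-38660917, minus strand, before the outermost start: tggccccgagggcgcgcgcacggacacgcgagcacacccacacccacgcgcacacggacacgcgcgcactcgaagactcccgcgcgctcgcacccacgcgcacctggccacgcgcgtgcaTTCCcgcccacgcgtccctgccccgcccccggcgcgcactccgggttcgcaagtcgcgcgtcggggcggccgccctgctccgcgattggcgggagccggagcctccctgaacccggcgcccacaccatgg
ERG start site 3, chr21:38498505-38498754, minus strand, inside the ERG locus: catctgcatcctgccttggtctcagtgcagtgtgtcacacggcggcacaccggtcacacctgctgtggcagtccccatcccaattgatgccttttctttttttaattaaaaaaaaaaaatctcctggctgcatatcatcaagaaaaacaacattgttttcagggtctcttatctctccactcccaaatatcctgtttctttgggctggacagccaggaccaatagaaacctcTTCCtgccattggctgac

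The outer window had a GC content of 77.2% and 44 CpG dinucleotides, against 46.4% and 3 in the inner window. Over 35116 RefSeq windows of the same length the median was 58% GC with 11 CpG. GGAA or its reverse complement occurred 1 time in each of the windows shown, 4 times before start site 2 and 2 times before start site 4, which overlaps site 3, and 92.7% of all windows hold at least 1. The hexamer AGAACA, a motif of steroid receptor sites, was searched on both strands and was absent from all 4 ERG windows, against 12.4% of all windows that hold it.

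ERG was detected in both VCaP libraries and not in LNCaP–ENZ168. The count was 2052 UMIs in VCaP parental, 816 in VCaP–ENZ48 and 0 in LNCaP–ENZ168. As counts per 1000000 UMIs of the library (CPM), ERG was at 105 CPM (101 to 109.8) in VCaP parental and 57.1 CPM (53.2 to 61.1) in VCaP–ENZ48, and a count of 0 in LNCaP–ENZ168 allows up to 0.475 CPM. That places ERG at rank 1543 from the top of 27329 detected genes in VCaP parental and at rank 2381 of 28856 in VCaP–ENZ48. Against this limit of 3 counts, ERG was at least 120.1-fold lower in LNCaP–ENZ168 than the level measured in VCaP–ENZ48. The 95% bound that also covers the counting error of the 816 UMIs was less far, at a log2 ratio of -6.61.

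TMPRSS2 was detected in all 3 libraries and had the opposite order between the lines. The count was 616 UMIs in LNCaP–ENZ168, 523 in VCaP parental and 240 in VCaP–ENZ48. These correspond to 97.6 CPM (90.0 to 106), 26.8 CPM (24.6 to 29.2) and 16.8 CPM (14.7 to 19.0), and no interval overlaps another. On CPM + 1, TMPRSS2 in LNCaP–ENZ168 over that in VCaP–ENZ48 had a log2 ratio of 2.47 (2.32 to 2.76). Of 8854 genes with at least 10 CPM on average in this pair, 35.5% were higher by at least 2-fold in LNCaP–ENZ168 and 11.1% were lower and the median ratio of all of them was 0.65. TMM scaling, which sets libraries level on a trimmed mean of gene ratios, brought that median to 0.10 and the ratio of TMPRSS2 to 1.95, with 1440 genes lower and 1443 higher in place of 979 and 3145.

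**Figure D1:**
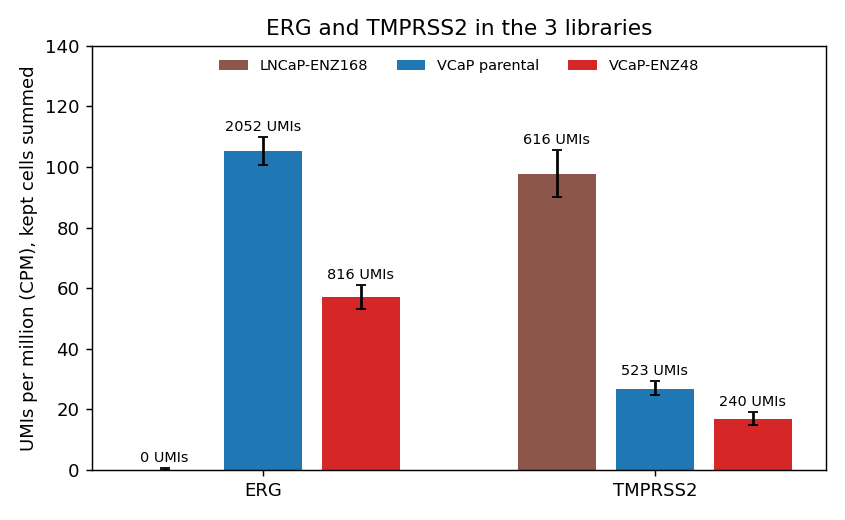
Levels (CPM) of ERG and TMPRSS2 in each of the 3 libraries, with exact Poisson 95% intervals and the UMI count above each bar. For 0 UMIs the interval ends at 0.584 CPM. ERG stood at 105 and 57.1 CPM in the VCaP libraries with 0 UMIs in LNCaP–ENZ168, while TMPRSS2 was highest in LNCaP–ENZ168 at 97.6 CPM.

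Both genes were lower in VCaP–ENZ48 than in VCaP parental. The log2 ratio of ERG was -0.87 (-1.0 to -0.76) and that of TMPRSS2 was -0.64 (-0.90 to -0.45). Neither reached 2-fold, and both passed 1.5-fold. Among 7729 genes of at least 10 CPM on average, 6.77% were lower by at least 2-fold, 8.19% were higher by at least 2-fold and 17.9% were lower by at least 1.5-fold. In that distribution, 8.99% of genes had a lower ratio than ERG and 15.2% a lower ratio than TMPRSS2, around a median of -0.07. The distance of ERG depended on the scaling. TMM factors moved that median to -0.34 and ERG to -1.16, past 2-fold, with 1032 genes lower and 472 higher in place of 523 and 633, while totals without mitochondrial and ribosomal protein genes gave -0.74 for ERG with 456 lower and 1054 higher.

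Within a library the count of ERG can be read against that of TMPRSS2 with no scaling. Capture can differ between genes, so the ratio is compared between libraries and not read as a ratio of transcripts. VCaP parental had 3.92 ERG UMIs per TMPRSS2 UMI (3.56 to 4.33), and VCaP–ENZ48 had 3.40 (2.94 to 3.94). The ratio of VCaP–ENZ48 to VCaP parental was 0.867 (0.727 to 1.035), an interval that holds 1. The levels of both genes were therefore lower by amounts that this depth does not separate, which does not show that they were equal.

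The libraries differed in the called cell cycle phase of their cells, and both genes differed between phases. Phases were called from S and G2M genes, which hold neither ERG nor TMPRSS2, in cells thinned to 2000 UMIs. Cells called G1 numbered 284 in VCaP parental, 777 in VCaP–ENZ48 and 738 in LNCaP–ENZ168, and cells called G2M numbered 322, 24 and 95. In VCaP parental, ERG was at 161 CPM (150.2 to 172) in G1 cells, 105 CPM (97.9 to 112) in S cells and 63.0 CPM (57.2 to 69.3) in G2M cells. TMPRSS2 followed the same order, at 43.7 CPM (38.1 to 49.8), 26.3 CPM (22.8 to 30.2) and 14.5 CPM (11.8 to 17.7). The intervals of the 3 phases do not overlap for either gene. Counted per cell rather than as CPM, ERG was at 2.89 UMIs in G1 cells and 1.32 in G2M cells, although G2M cells had more UMIs in all (a median of 18994.5 against 16201.5).

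The difference between phases was large beside that of other genes. The log2 ratio of G1 over G2M cells in VCaP parental was 1.34 (1.18 to 1.53) for ERG and 1.52 (1.24 to 1.95) for TMPRSS2. Of 7345 genes of at least 10 CPM on average, 0.885% were at least 2-fold higher in G1 cells, and 99.8% had a lower ratio than ERG. TMPRSS2 in LNCaP–ENZ168, a line without the fusion, was at 109 CPM in G1 cells, 70.9 CPM in S cells and 50.5 CPM in G2M cells, a G1 over G2M ratio of 1.09 (0.63 to 1.63), where 4.57% of 9008 genes were at least 2-fold higher in G1 cells. In VCaP–ENZ48, G1 and S cells had about the same ERG level, 57.6 CPM (53.4 to 62.1) and 60.0 CPM (49.7 to 71.9), and its 24 G2M cells held only 9 ERG and 4 TMPRSS2 UMIs.

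The size of the phase difference in VCaP parental rested on barcodes ending in N. Among the 859 such cells the G1 over G2M ratio was 1.48 (1.31 to 1.68) for ERG and 1.65 (1.33 to 2.11) for TMPRSS2. Among the 138 cells whose barcode ends in a base it was 0.53 (0.08 to 0.98) and 0.81 (-0.07 to 1.78), from 37 G1 cells and 46 G2M cells. The direction was the same and the size smaller, and for TMPRSS2 the interval holds 0. The part of the barcode type in this result was not tested.

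**Figure D2:**
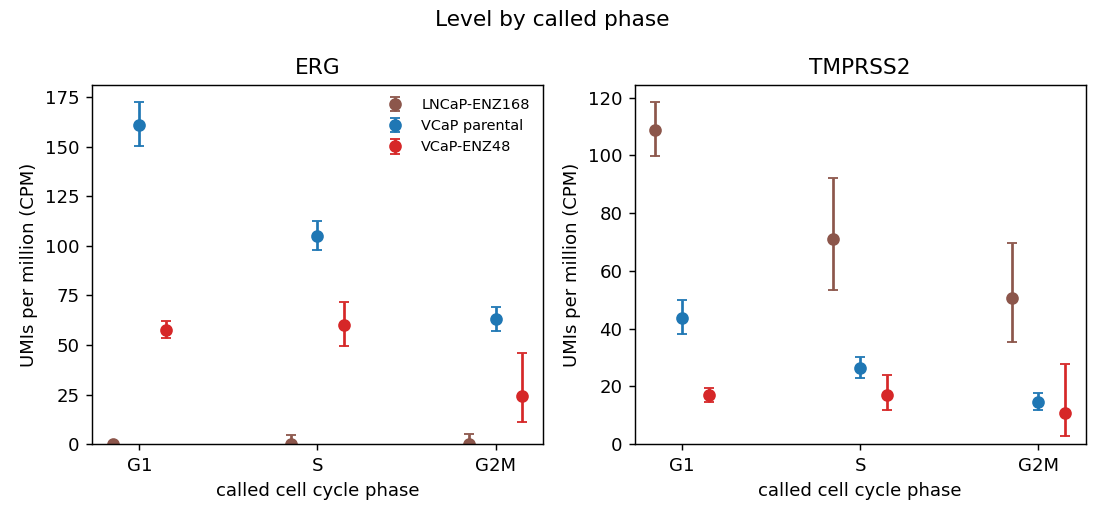
CPM of ERG (left) and TMPRSS2 (right) in cells called G1, S and G2M, by library, with exact Poisson 95% intervals. In VCaP parental both genes were lower in S than in G1 cells and lowest in G2M cells, from 161 to 63.0 CPM for ERG and from 43.7 to 14.5 CPM for TMPRSS2.

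Because most VCaP–ENZ48 cells were called G1 and most VCaP parental cells were not, the libraries were also compared phase by phase. In G1 cells the log2 ratio of VCaP–ENZ48 over VCaP parental was -1.47 (-1.63 to -1.33) for ERG and -1.32 (-1.65 to -1.09) for TMPRSS2, both past 2-fold, where 3.17% of 7664 genes were at least 2-fold lower. Only 1.11% of those genes had a lower ratio than ERG, and 1.46% a lower ratio than TMPRSS2. In S cells the ratios were -0.80 (-1.10 to -0.53) and -0.59 (-1.19 to -0.09), and in G2M cells -1.34 (-2.51 to -0.44) and -0.40 (-2.33 to 0.97). The lower level of both genes in VCaP–ENZ48 was thus larger among G1 cells than over all cells. In G1 cells with barcodes ending in a base, the ratios were -0.91 (-1.33 to -0.52) for ERG and -0.61 (-1.37 to 0.14) for TMPRSS2, so the larger difference also rested on barcodes ending in N. Over all phases, the barcodes ending in a base gave -0.77 (-1.06 to -0.50) for ERG and -0.30 (-0.84 to 0.21) for TMPRSS2.

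Cells were also split into 3 bins of equal size by depth, and again by mitochondrial share, within each library. ERG in VCaP parental varied little with depth, at 107 CPM in the lowest bin, 101 CPM in the middle bin and 107 CPM in the highest bin. In VCaP–ENZ48 the corresponding levels were 47.6, 64.5 and 55.5 CPM. The ratio of VCaP–ENZ48 over VCaP parental lay between -1.15 and -0.64 for ERG over the bins of either property. For TMPRSS2 it lay between -1.03 and -0.22, and in 3 of these 6 bins its interval held 0. Both genes were highest in the bin of VCaP parental cells with most mitochondrial UMIs, where ERG was at 126 CPM (117 to 135) and TMPRSS2 at 32.2 CPM (27.8 to 37.1). For TMPRSS2 this interval overlaps that of the middle bin, at 26.7 CPM (23.0 to 30.9). In VCaP parental the median mitochondrial share was 6.59% in G1 cells and 5.67% in G2M cells. The part of phase in this difference was not tested.

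Detection over cells followed the levels. With all UMIs kept, ERG was seen in 715 of 997 VCaP parental cells (71.7%, 68.8 to 74.5), 418 of 947 VCaP–ENZ48 cells (44.1%, 40.9 to 47.4) and 0 of 944 LNCaP–ENZ168 cells. TMPRSS2 was seen in 334 cells of VCaP parental (33.5%), 188 of VCaP–ENZ48 (19.9%) and 377 of LNCaP–ENZ168 (39.9%), although LNCaP–ENZ168 had the fewest UMIs per cell. Cells with 3 or more ERG UMIs numbered 294 in VCaP parental and 103 in VCaP–ENZ48, and the highest count in a cell was 18 and 8.

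Shares at matched depth remove the difference in sequencing. Each cell was thinned to 2000 UMIs, which left out 30 VCaP–ENZ48 cells and 1 LNCaP–ENZ168 cell. ERG was then seen in 18.2% of VCaP parental cells (15.8 to 20.7) and 10.9% of VCaP–ENZ48 cells (8.96 to 13.1). The LNCaP–ENZ168 cells, which should lack ERG, gave 0 of 943, which by the limit of 3 counts allows a share of up to 0.318% (0.390% by the Clopper-Pearson interval). That limits cells with a UMI at this depth, not cells that express ERG, since most VCaP cells also had none. TMPRSS2 was seen in 18.3% of LNCaP–ENZ168 cells (15.9 to 21), 4.61% of VCaP parental cells (3.40 to 6.11) and 3.16% of VCaP–ENZ48 cells (2.13 to 4.51), and the last 2 intervals overlap. ERG in VCaP parental and TMPRSS2 in LNCaP–ENZ168 were thus detected in nearly equal shares of cells. The order of the libraries was the same at 500, 1000, 4000 and 8000 UMIs for both genes. The deeper settings describe the deeper cells: 4000 UMIs left out 201 of 944 LNCaP–ENZ168 cells and 131 of 947 VCaP–ENZ48 cells, and 8000 UMIs left out 724 and 350 of them and 27 VCaP parental cells.

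**Figure D3:**
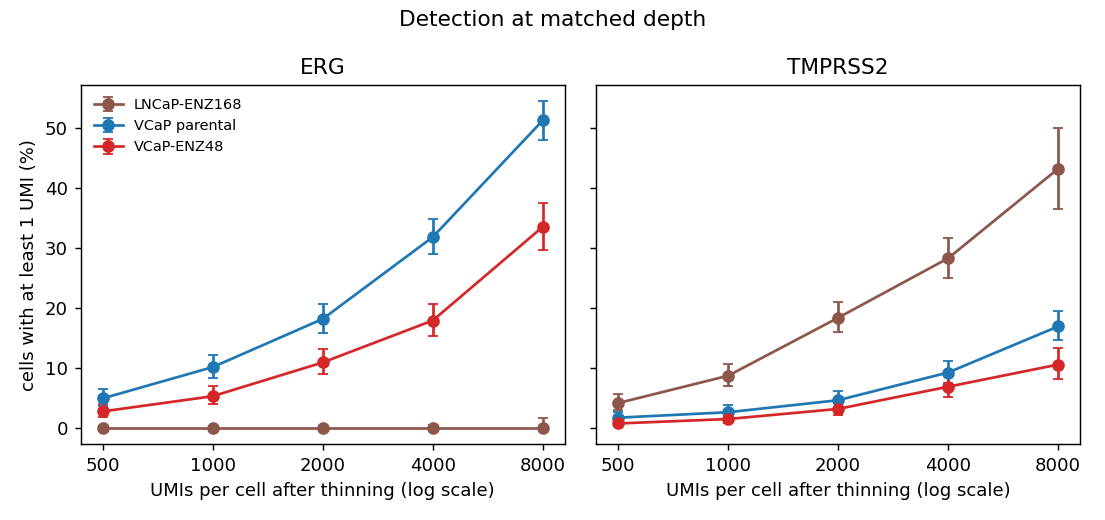
Share of cells with at least 1 UMI of ERG (left) and TMPRSS2 (right) after thinning each cell to 500 to 8000 UMIs (log scale), with exact Clopper-Pearson 95% intervals. At each depth VCaP parental lay above VCaP–ENZ48 for both genes, and ERG stayed at 0 cells in LNCaP–ENZ168.

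The spread over cells of ERG and TMPRSS2 in VCaP parental was above that of most genes. At 2000 UMIs the variance over the mean of ERG was 1.16 in VCaP parental and 1.02 in VCaP–ENZ48, and the median over genes of at least 10 CPM was 1.01 and 1.03. TMPRSS2 was at 1.19 and 1.10. In VCaP parental 93.9% of genes had a lower value than ERG and 95.3% a lower value than TMPRSS2, and in VCaP–ENZ48 the shares were 42.2% and 78.5%. At 8000 UMIs ERG was at 1.5 and 1.30 and TMPRSS2 at 1.40 and 1.13, against medians of 1.06 and 1.09, and 94.7% of genes in VCaP parental had a lower value than ERG. In VCaP parental at 8000 UMIs, ERG was seen in 68.9% of G1 cells and 35.1% of G2M cells, and TMPRSS2 in 26.0% and 9.49%.

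Cells with both transcripts were counted against the number expected if detection of the 2 genes were unrelated. With all UMIs kept, 279 VCaP parental cells held both against 239.5 expected, and 121 VCaP–ENZ48 cells held both against 83.0 expected, a ratio of 1.16 and 1.46. Deep cells are more likely to show any gene, so these ratios carry the depth of the cells. After thinning to 2000 UMIs, 9 VCaP parental cells held both against 8.35 expected, a ratio of 1.08 (0.49 to 2.04). VCaP–ENZ48 had 7 such cells against 3.16 expected, a ratio of 2.21 (0.89 to 4.54). Both intervals hold 1, but they are intervals of the share with both over a fixed expected share, not tests of unrelated detection. Another random draw of the same thinning gave 1.13 and 0.68, so the ratio at this depth is not stable.

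Other depths did not settle on a single value. In VCaP parental the ratio was 3.04 (1.31 to 5.96) at 1000 UMIs from 8 cells, 1.40 (1.01 to 1.89) at 4000 UMIs from 41 cells and 1.25 (1.03 to 1.5) at 8000 UMIs from 105 cells. In VCaP–ENZ48 it was 4.06 (0.84 to 11.8) from 3 cells, 1.5 (0.84 to 2.45) from 15 cells and 0.95 (0.58 to 1.45) from 20 cells at the same depths. At 500 UMIs no cell held both in either library, where 0.836 and 0.192 were expected. In VCaP parental at 8000 UMIs the ratio was above that of ERG with 99% of 8292 genes seen in 5% to 95% of cells, whose median was 1.00. In VCaP–ENZ48 the corresponding share was 28.6% at this depth, 98.0% at 4000 UMIs and 99.96% at 2000 UMIs. In VCaP parental it was 99.3% at 4000 UMIs and 68.5% at 2000 UMIs. At 2000 UMIs TMPRSS2 itself was seen in 4.61% of VCaP parental and 3.16% of VCaP–ENZ48 cells, under the range of 5% to 95%. The shares at that depth thus set ratios from 9 and 7 cells against genes seen in more cells, and are not a like comparison. Set against the ratios of TMPRSS2 with other genes at 8000 UMIs, the shares were 90.9% in VCaP parental and 35.0% in VCaP–ENZ48.

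Since both genes were highest in G1 cells in VCaP parental, co-detection was also counted within phases. In VCaP parental at 8000 UMIs the ratio was 1.12 (0.87 to 1.42) in G1 cells, 1.16 (0.83 to 1.56) in S cells and 1.14 (0.59 to 1.96) in G2M cells. Summed over phases, 105 cells held both against 92.2 expected within phases, a ratio of 1.14 (0.94 to 1.36), compared with 84.0 expected and 1.25 with the phases pooled. At 4000 UMIs the ratio summed over phases was 1.23 (0.89 to 1.66). Each interval is that of the share of cells with both, divided by a fixed expected share. It does not hold the number of cells with each gene fixed, so it cannot decide whether detection was unrelated within a phase. Whether 105 cells against 92.2 passes unrelated detection was not tested.

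**Figure D4:**
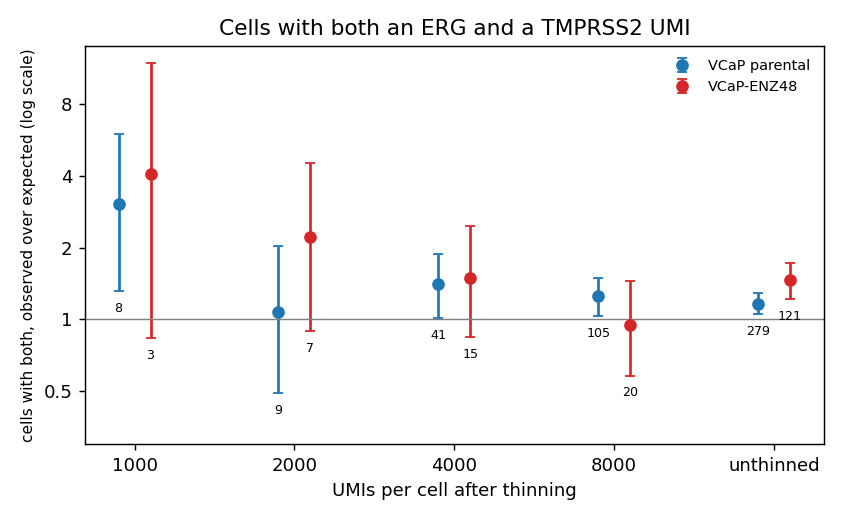
Cells with both an ERG and a TMPRSS2 UMI, observed over expected (log scale), in VCaP parental and VCaP–ENZ48 at thinned depths of 1000 to 8000 UMIs and unthinned. Bars are Clopper-Pearson 95% intervals of the share with both, divided by a fixed expected share, with the number of cells under each. The depth of 500 UMIs, with 0 such cells, is not drawn. The values at 1000 and 2000 UMIs rest on 3 to 9 cells, and at 8000 UMIs they were 1.25 and 0.95.

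The genes that lie between ERG and TMPRSS2 were on both sides of no difference between the VCaP libraries, and how many lay on each side depended on the scaling. The annotation places 15 protein-coding genes in this interval, of which 14 are in the files and 8 had at least 10 CPM on average in the VCaP libraries. None was lower by 2-fold in VCaP–ENZ48, where 6.77% of all genes were, and 2 were higher, where 8.19% of all genes were: PCP4, a small calmodulin-binding protein, and BACE2, a membrane protease. PCP4 was at 89.5 CPM in VCaP parental and 460 CPM in VCaP–ENZ48, a log2 ratio of 2.35 (2.28 to 2.44), and BACE2 was at 13.7 and 33.6 CPM, a log2 ratio of 1.23 (1.07 to 1.51). The nucleosome-binding HMGN1 and the proteasome chaperone PSMG1 had ratios near those of the fusion partners, -0.89 and -0.76. The other 4 lay between 0.09 and 0.89. The median of the 8 was 0.24, with 2 negative and 6 positive ratios. TMM scaling gave a median of -0.05, 4 negative and 4 positive ratios, 2 genes lower by 2-fold and 1 higher, and median-of-ratios scaling gave 4 and 4 with 1 lower and 2 higher. In G1 cells only the signs were also 4 and 4, with none lower and 2 higher. ETS2, another ETS factor and the nearest of these genes to ERG, was at 2.72 and 1.33 CPM, under the minimum. MX1, which overlaps TMPRSS2 on the opposite strand, held 38 and 39 UMIs in the VCaP libraries, against 523 and 240 of TMPRSS2.

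**Figure D5:**
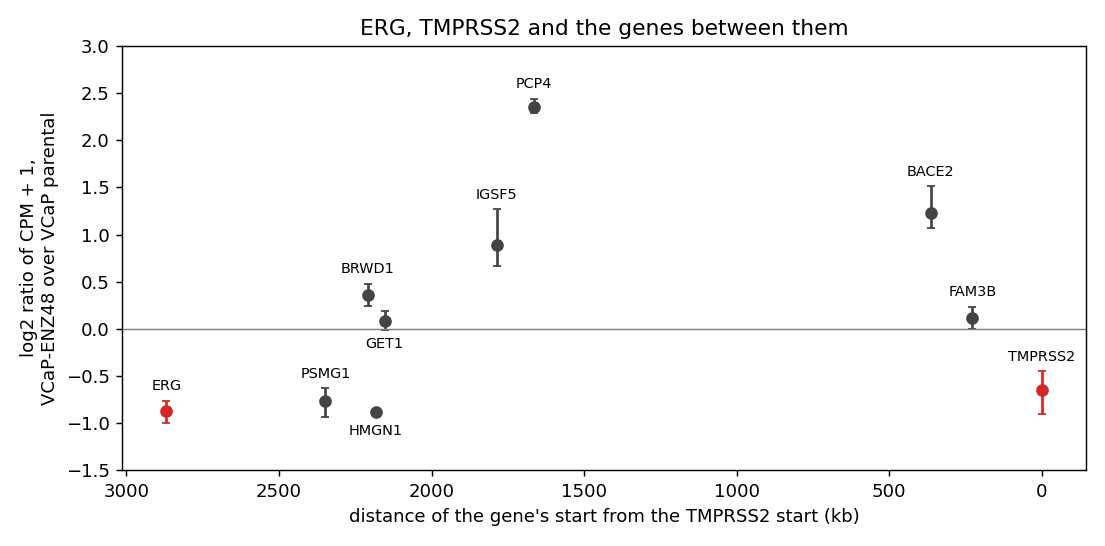
Log2 ratio of CPM + 1 in VCaP–ENZ48 over VCaP parental for ERG, TMPRSS2 (red) and the 8 genes between them of at least 10 CPM, by the distance of each start from the TMPRSS2 start in kb, with exact conditional 95% intervals. ERG at -0.87 and TMPRSS2 at -0.64 lie at either end, and PCP4 between them was at 2.35.

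Genes tied to androgen and to the fusion partners lay on both sides of no difference between the VCaP libraries. Of 20 androgen-induced genes, 17 had at least 10 CPM, and 4 of them were at least 2-fold lower in VCaP–ENZ48, against 6.77% of all genes: SLC45A3 (log2 ratio -2.02), FKBP5 (-1.45), PMEPA1 (-1.10) and PLPP1 (-1.09). None was 2-fold higher, against 8.19% of all genes, though the secreted protease KLK2 was at 0.97 and the acid phosphatase gene ACP3 (ACPP in the files) at 0.94. The list's median was 0.11, and -0.18 under TMM scaling with 5 lower and none higher. Totals without mitochondrial and ribosomal protein genes gave 2 lower and 3 higher, and equal weight per cell 4 and 2. TMPRSS2 lay with the lower part of this list, below 12 of the 17. Of 8 other genes reported as 5′ partners of ETS fusions, 4 were at least 2-fold lower, against the same 6.77%, namely SLC45A3, the fatty acid enzyme ACSL3 (-1.58) and the RNA-binding DDX5 (-1.33) and HNRNPA2B1 (-1.28), with a median of -0.68.

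Among genes linked with ERG in prostate cancer, several were lower in LNCaP–ENZ168 than in both VCaP libraries, and YAP1 was higher beyond counting error. Of 12 on the list, 6 were lower in LNCaP–ENZ168 than in both VCaP libraries (CRISP3, PLA1A, TDRD1, LEF1, ARHGDIB and CACNA1D). EZH2, YAP1 and KCNH8 were higher there, and PLAT, PLAU and CXCR4 had 0 to 6 UMIs in every library. The intervals in LNCaP–ENZ168 and VCaP parental overlapped for EZH2 (56.1 to 68.6 and 55.7 to 62.6 CPM) and KCNH8 (6.43 to 11.2 and 4.77 to 6.96 CPM). For CACNA1D the intervals in LNCaP–ENZ168 and VCaP–ENZ48 overlapped (5.20 to 9.54 and 8.56 to 11.9 CPM). YAP1 was at 34.5 CPM in LNCaP–ENZ168, 0.717 CPM in VCaP parental and 4.41 CPM in VCaP–ENZ48. Of the list, 7 had at least 10 CPM in the VCaP pair and all 7 had a negative ratio in VCaP–ENZ48, under each scaling used, with a median of -0.66. Of all genes tested, 54.8% had a negative ratio, a share that the scalings moved between 42.1% and 71.6%. The secreted protein CRISP3 was at 276 CPM in VCaP parental, 161 CPM in VCaP–ENZ48 and 1.27 CPM in LNCaP–ENZ168. The phospholipase PLA1A was at 132, 83.5 and 0.475 CPM, and the germ cell protein TDRD1 at 161, 143 and 0.475 CPM. Their log2 ratios between the VCaP libraries were -0.77, -0.66 and -0.17. ARHGDIB and EZH2, the latter a histone methyltransferase that proliferating cells express, were at least 2-fold lower, at -1.25 and -2.56 (2 of 7, against 6.77% of all genes), in a pair of libraries with 322 and 24 cells called G2M. Among barcodes ending in a base, LEF1, a factor of Wnt signalling, had a positive ratio.

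LNCaP carries a rearrangement of ETV1, another ETS gene. ETV1 was at 143 CPM (134 to 152) in LNCaP–ENZ168 from 901 UMIs and had 0 UMIs in both VCaP libraries. ERG and ETV1 were thus each seen in 1 line only among these libraries. Of the other ETS genes on the list, ETV4 and FLI1 matched no gene that the libraries list, so no level is given. ETV5 was under 10 CPM on average in the VCaP pair. ELK4 was above it, at 14.2 CPM in VCaP parental and 19.9 CPM in VCaP–ENZ48.

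Among surface serine proteases and their inhibitors, TMPRSS2 stood apart from hepsin. HPN, which encodes hepsin, was at 23.6 CPM in VCaP parental, 78.4 CPM in VCaP–ENZ48 and 103 CPM in LNCaP–ENZ168, a log2 ratio of 1.69 between the VCaP libraries where TMPRSS2 was at -0.64. It was the only 1 of 5 genes on this list with at least 10 CPM that was past 2-fold. Of all genes, 8.19% were 2-fold higher and 6.77% lower. Totals without mitochondrial and ribosomal protein genes, and equal weight per cell, each gave 2 of the 5 that were 2-fold higher. The inhibitor genes SPINT1 and SPINT2 were at 0.97 and -0.35.

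All libraries had luminal epithelial markers, though in different orders of level. EPCAM was at 173 CPM in LNCaP–ENZ168, 428 CPM in VCaP parental and 325 CPM in VCaP–ENZ48. In the same order of libraries CDH1 was at 181, 56.7 and 65.7 CPM and KRT8 at 176, 98.4 and 208 CPM. KRT18 was at 460, 321 and 404 CPM, and KRT19 at 1.74, 17.0 and 19.2 CPM, with 11 UMIs in LNCaP–ENZ168. Of 5 luminal markers, KRT8 was 2-fold higher in VCaP–ENZ48 (1.08), against 8.19% of all genes, and none was 2-fold lower, against 6.77%. Under TMM scaling, under median-of-ratios scaling and in G1 cells only, none of the 5 was 2-fold higher. Of 6 markers of endothelial cells, in which ERG is normally found, the libraries list only 2, PECAM1 and VWF. These summed to 5 UMIs in VCaP parental, 0 in VCaP–ENZ48 and 13, all of VWF, in LNCaP–ENZ168. Of 5 leukocyte markers the libraries list 3, which summed to 5, 7 and 0 UMIs. The 4 fibroblast markers that the libraries list were at or near 0 apart from LUM, with 409 and 361 UMIs in the VCaP libraries. Of 6 landmark genes, none was past 2-fold in the VCaP pair, against the same shares of all genes. Their ratios ran from -0.61 for HPRT1 to 0.97 for PPIA. Totals without mitochondrial and ribosomal protein genes gave 1 that was 2-fold higher, and so did barcodes ending in a base.

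Over the 3 libraries, the genes with levels most like ERG were PM20D2, ALB and MAGEH1, at a Euclidean distance of 0.52 to 0.56 on log2 (CPM + 1) among 8504 genes. Those most like TMPRSS2 were ZNF511, DHRS13 and KRI1, at 0.10 to 0.16. From ERG, TMPRSS2 came at place 6578, since the lines order the partners in opposite ways.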

How the data were processed

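Drop-seq libraries of LNCaP–ENZ168, VCaP parental and VCaP–ENZ48, 1 each, were analysed from the deposited raw UMI counts per gene and barcode. The authors made these counts with Drop-seq tools, STAR and Picard on GRCh38 with Gencode 33 with default settings and 1000 expected cells. The study filtered cells on genes, molecules and mitochondrial share, and the thresholds for these libraries are not given in the sources used here. Coordinates came from Gencode 44. Genes that a file does not list were set to 0 in it.

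Cells were kept if they had 300 genes and 500 UMIs or more and no more than 25% of UMIs from mitochondrial genes, and no doublet caller was run. UMIs were summed over kept cells and scaled to CPM (6313283, 19515202 and 14301287 UMIs). Ratios used a pseudocount of 1 CPM, and their exact conditional intervals leave it out. Genes of at least 10 CPM on average were compared. A count of 0 was given a limit of 3 counts. Shares carry Clopper-Pearson intervals. Co-detection ratios carry that interval of the share of cells with both, divided by the expected share, which is held fixed. Phases were called by CellCycleScoring of Seurat 5.3.0 on genes detected in at least 10 cells. Scripts were tested on simulated data. Alternatives covered filters, scaling (TMM of edgeR 4.0.16, median-of-ratios, totals without mitochondrial and ribosomal protein genes), pseudocount, minimum and thinning depth. Named genes were the members, genes of written lists, genes between the members and the 3 genes nearest each. Members and lists were chosen with earlier results of these data known. Splits by barcode end within phases, co-detection within phases and the comparison of co-detection with all genes at 4000 and 8000 UMIs were chosen after seeing the data.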

Additional observations from a re-analysis of the deposited data

How the results depend on the processing

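No paired analysis was possible because the design holds 1 library for every condition. No library could be left out for the same reason, so the alternatives changed filters, scaling and depth. The log2 ratios of ERG and TMPRSS2 between libraries, and of G1 over G2M cells, kept their sign under all of them. Co-detection in VCaP–ENZ48 did not keep its side, at 2.21 times the expected number at 2000 UMIs and 0.95 at 8000 UMIs. The medians of several gene lists changed sign with the scaling. Among the values that answer a comparison, 292 stayed within their error (counts of genes within 1.5 times) and 85 did not, and they are given here by setting; the causes were not tested beyond what each setting does by its construction.

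Under TMM scaling the ERG level, VCaP parental, was 136 CPM, the TMPRSS2 level, LNCaP–ENZ168, 71.4 CPM and the TMPRSS2 level, VCaP parental, 34.6 CPM. The log2 ratios of VCaP–ENZ48 over VCaP parental were -1.16 (ERG) and -0.93 (TMPRSS2), and that of TMPRSS2 in LNCaP–ENZ168 over VCaP–ENZ48 was 1.95, with 1032 genes lower in the first pair and 1443 higher in the second. Under median-of-ratios scaling the same quantities were 131, 73.6 and 33.4 CPM, -1.10 for ERG, 1.99, 919 and 1535 genes. With totals that leave out mitochondrial and ribosomal protein genes, ERG was at 144 CPM (VCaP parental) and 86.0 CPM (VCaP–ENZ48), TMPRSS2 at 121 CPM (LNCaP–ENZ168), 36.8 CPM and 25.3 CPM, the ratios were -0.74 for ERG and 2.22 for TMPRSS2 between lines, and 1054 genes were higher in the first pair and 1523 lower in the second. A pseudocount of 5 CPM gave 2.24 for TMPRSS2 between lines.

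With cells called G1 only, ERG was at 161 CPM in VCaP parental, TMPRSS2 at 43.7 CPM there and 109 CPM in LNCaP–ENZ168, the ratios were -1.47 and -1.32, 243 genes were lower, and at 2000 UMIs 23.9% (ERG, VCaP parental), 7.75% (TMPRSS2, VCaP parental) and 4.76% (TMPRSS2, VCaP–ENZ48) of cells were positive. With barcodes ending in a base only, the levels in VCaP parental were 96.8 CPM (ERG) and 23.6 CPM (TMPRSS2), the TMPRSS2 ratio was -0.30, the G1 over G2M ratios were 0.53 and 0.81, the shares were 15.2% (ERG, VCaP parental), 2.90% and 1.6% (TMPRSS2, VCaP parental and VCaP–ENZ48), and co-detection was 0 in both. Both settings thinned their cells in a new random draw. In the main draw the same G1 cells gave 28.2%, 8.45% and 3.22%, in the order above. The same cells with barcodes ending in a base gave 20.3%, 5.80% and 1.6%. These shares and the co-detection thus also carry the draw.

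Counts of genes past 2-fold moved with the minimum. At 1 CPM they were 1937 higher in the VCaP pair and 3070 lower and 5224 higher between lines. With no minimum they were 2023, 3585 and 5505. At 50 CPM they were 245 lower and 146 higher in the VCaP pair and 320 and 1031 between lines. At 1.5-fold they were 1384 lower and 1202 higher.

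Shares of cells moved with depth, given for ERG in VCaP parental and VCaP–ENZ48, then TMPRSS2 in LNCaP–ENZ168 and in the same VCaP libraries. They were 4.91%, 2.75%, 4.13%, 1.71% and 0.739% at 500 UMIs, and 10.1%, 5.28%, 8.69%, 2.61% and 1.48% at 1000. They were 31.8%, 17.9%, 28.3%, 9.23% and 6.86% at 4000, and 51.2%, 33.5%, 43.2%, 16.9% and 10.6% at 8000. Unthinned they were 71.7%, 44.1%, 39.9%, 33.5% and 19.9%. Cells with both over expected were 0 in both libraries at 500 UMIs, 3.04 in VCaP parental at 1000 UMIs and 0.679 in VCaP–ENZ48 with a second random seed. Co-detection at 2000 UMIs rests on 9 and 7 cells.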
